A study of Mus musculus with 12 samples.

Results

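Glycosylphosphatidylinositol (GPI) anchors are glycolipids that hold many proteins on the outer face of the cell membrane. The 31 genes described here build the anchor, join it to proteins, trim it afterwards, supply its mannose or cleave it. They are Pig, Pgap and Dpm genes and their partners Gpaa1, Mpdu1, Mppe1 and Gpld1. They were taken as a list from the pathway, and the list need not be complete. Pigb is in the list because its level differed between the groups of these same libraries, so its difference is given as a description with no p-value. The 31 genes are 31 of 53379 in the count tables. Of these, 29 had enough counts to be tested, among 13442 genes tested in all. Pigz, the enzyme of the fourth mannose, and Gpld1, a phospholipase that cuts the anchor, had too few counts.

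Anchor synthesis begins on the cytoplasmic face of the endoplasmic reticulum, where N-acetylglucosamine is added to phosphatidylinositol. The lipid is then turned to the luminal side, mannoses are added from dolichol phosphate mannose, ethanolamine phosphates are added to the mannoses, and a transamidase joins the finished anchor to a protein. In the developing cerebellum several adhesion and guidance proteins carry such an anchor, among them the contactins, the IgLON family and the glypicans.

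The libraries were made from RNA of the external granule layer, where granule neuron precursors divide. It was cut by laser from central lobules of the cerebellum of C57BL/6 mice, aged 6 days after birth. The study compared mice with a conditional knockout of Skil, which encodes the transcriptional regulator SnoN (6 libraries, KO), with control littermates (6 libraries, WT). The sources used here give neither the driver of the knockout, nor the deleted part of Skil, nor whether each library came from a separate animal. The p-values therefore measure only the spread between these libraries. Libraries are named by group and number in their titles. WT2 and KO4 carry the submitters' mark as outliers, so the tests used 5 WT libraries (1, 3, 5, 6 and 7) and 5 KO libraries (2, 3, 5, 6 and 8), with the marked libraries given beside them. KO2 is a knockout by its title, but its genotype tag reads wild type.

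The 12 libraries held 7520076 to 15083086 counts in genes. Skil was at 49.9 ± 7.98 CPM (counts scaled to library size) in WT and 30.7 ± 6.39 in KO (SD, n = 5 each). Its groups did not overlap (two-sided exact permutation p = 0.00794), and its adjusted p in edgeR's quasi-likelihood test was 0.124. In the marked libraries Skil was at 76.5 CPM (WT2) and 14.0 CPM (KO4). The 7 granule precursor markers summed to 2159 to 2364 CPM in WT and 2243 to 2890 in KO. Among them Barhl1 was lower (log2 fold change -0.43, edgeR adjusted p = 0.131) and Pax6 higher (0.34, edgeR adjusted p = 0.141) at an unadjusted p under 0.05. Atoh1 was at 92.2 ± 16.7 CPM in WT and 95.8 ± 10.8 in KO. Of the 6 markers of mature granule and inner layer neurons, Slc17a7 (36.6 CPM) and Kcnc1 (16.6 CPM) were present in WT, and the other 4 had WT means of 0 (Gabra6) to 1.06 CPM (Grin2c). In such tissue, fewer cells of a type and less RNA per cell cannot be told apart.

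Pigb encodes the mannosyltransferase that adds the third mannose. It lies on the minus strand of chromosome 9 (GRCm38, chr9:73007419-73040378), head to head with Pigbos1, a gene for a small mitochondrial protein that starts on the opposite strand. The window around both starts is shown because the neighbours share it while their levels in KO differed. It is taken from RefSeq (GRCm38.p6, chr9:73039694-73039723), reads in the direction of Pigb, and the capitals mark the 18 bases between the start of Pigbos1 and the start of Pigb.

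Pigb and Pigbos1 starts: ggcagcACTTCCTGCCGCGGTAGTgccgga

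Levels of different genes were compared as CPM per kilobase of exon. In WT the highest was Dpm3, which tethers the dolichol phosphate mannose synthase to the membrane, at 140 ± 7.63 CPM per kb (SD, n = 5). Pigyl, a Pigy-like subunit of the first transferase, followed at 68.6 ± 10.2. Mpdu1, which cells need to use dolichol-linked mannose, was at 58.6 ± 3.75, which is within 1 SD of Pigyl. Pigp, another subunit of the first transferase, was at 40.8 ± 5.87 CPM per kb, and Pigx, the partner of the first mannosyltransferase, at 25.3 ± 2.90.

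The lowest tested level was that of Pigb, at 0.372 ± 0.0888 CPM per kb in WT. Dpm1, the catalytic subunit of the same synthase that Dpm3 tethers, was next at 0.496 ± 0.108, and the ranges of 1 SD around the 2 means overlapped. Subunits of 1 enzyme thus lay far apart on this scale. Of the transamidase, Pigt was at 15.6 ± 2.07 CPM per kb and Pigk, its catalytic subunit, at 2.34 ± 0.347. The exon length of a gene counts every annotated transcript, so a gene with long rarely used exons is placed low. Dpm1 also shares 895 of its exon bases (11.95%) with Gm20716, a gene on the same strand that had 0 counts. Whether reads in those bases were counted for Dpm1 is not given in the sources used here, so its level is uncertain.

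**Figure D1:**
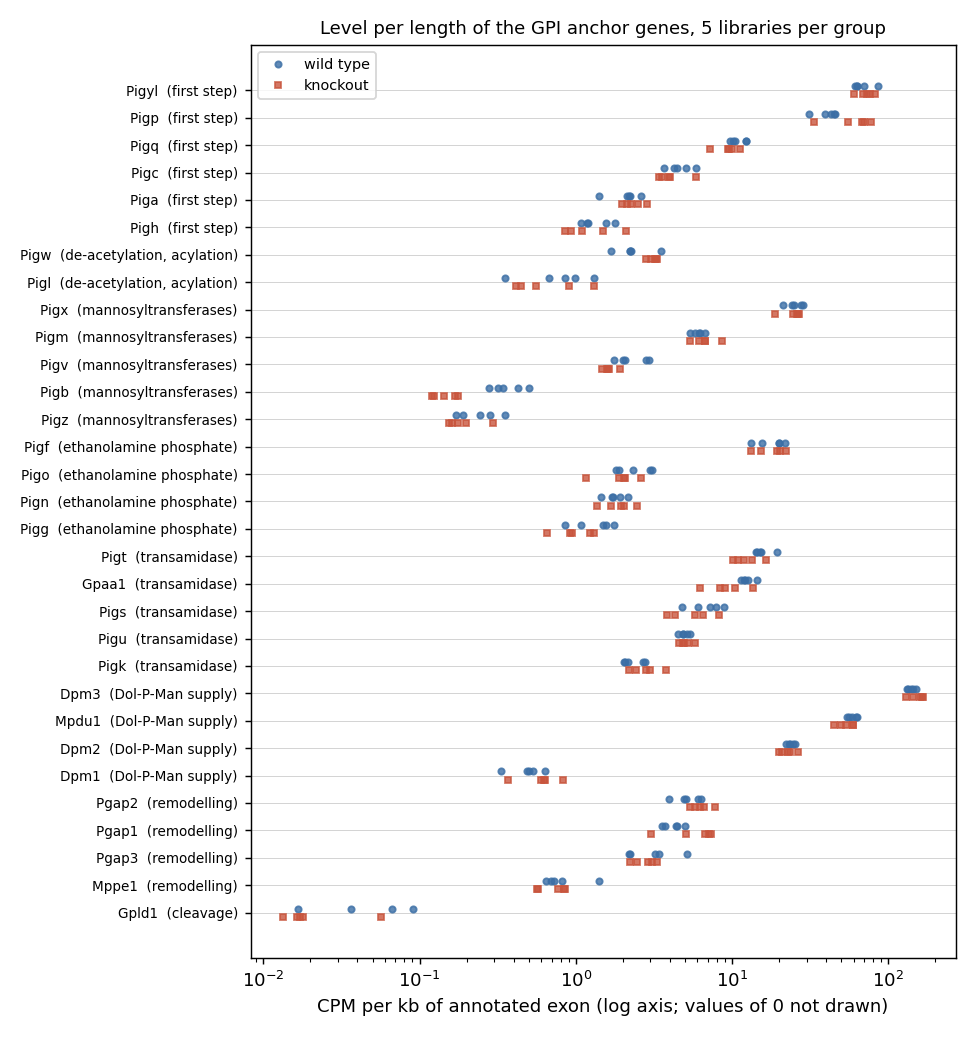
Level per length of each anchor gene (CPM per kilobase of annotated exon, log axis) with 1 point per library of the test, WT as circles and KO as squares, and genes grouped by role. Dpm3 is highest with a WT mean of 140, Pigb is the lowest tested gene with a WT mean of 0.372, and values of 0 are not drawn.

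The edgeR quasi-likelihood test with Benjamini-Hochberg adjustment called 0 members at 0.05. Over all genes tested 0.0149% passed as higher and 0.00744% as lower in KO. At an unadjusted p of 0.05, 2 members were higher (Pigp and Pgap1) against 11.8% of all genes. Pigb is left out of the count of lower members, as it was chosen for this difference. Of the 28 others, 3 were lower (Pigv, Gpaa1 and Pigt) against 9.97%, a share near that over all genes. Groups did not overlap for 0 members in the higher direction, against 1.04% of all genes, and in the lower direction for Pigb alone, against 1.31%, which is the difference that put it in the list. DESeq2 also called 0 members, against 1.76% of all genes as higher and 1.67% as lower. It gave 6 of the 29 no adjusted p (Pigb, Pigh, Pigg, Mppe1, Pigl and Dpm1), so these could not be called. The shares over all genes count any gene without an adjusted p as not called. The log2 fold change (KO over WT) was above 0 for 12 members and below 0 for 17, with a median of -0.06 beside 0.00 over all genes.

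**Figure D2:**
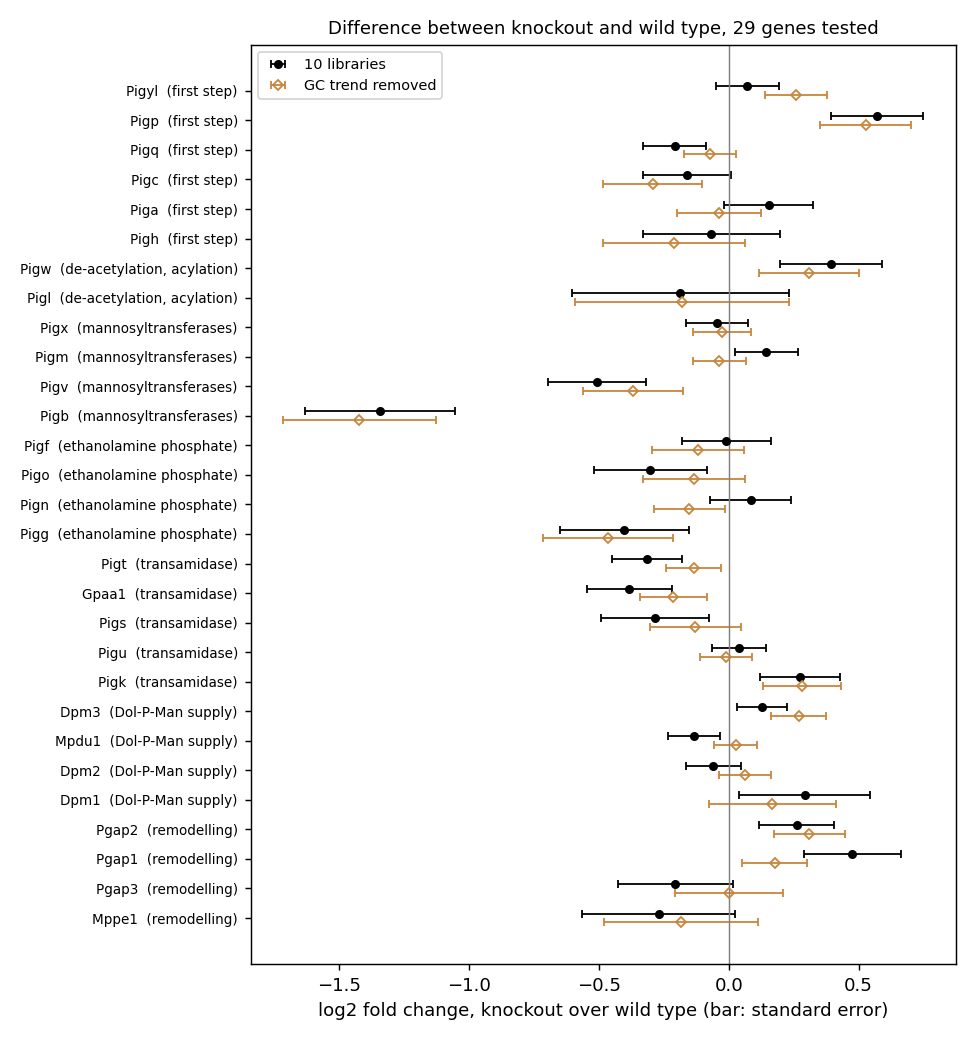
Log2 fold change (KO over WT) of each tested anchor gene with its standard error, by role, before and after the trend with GC content is removed. Pigb lies lowest at -1.34 and Pigp highest at 0.57.

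Pigb stood furthest from 0 among the members. Its values in WT were 2.89, 3.57, 3.33, 5.20 and 4.45 CPM, and in KO 1.75, 1.49, 1.25, 1.85 and 1.30 CPM. Every KO library was thus below every WT library of the test, and the KO values were close together. The means were 3.89 ± 0.927 in WT and 1.53 ± 0.268 in KO (SD, n = 5 each), a ratio of 0.393 and a log2 fold change of -1.34 (SE 0.29). These values rest on few reads, 37 to 68 per WT library and 14 to 18 per KO library. The marked control WT2, at 1.65 CPM (14 reads), lay inside the KO range, and the marked KO4 was at 1.46 CPM (15 reads). With all 12 libraries the log2 fold change was -1.21 and the groups overlapped.

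Genes beside Pigb had other values. Pigbos1 (2310009A05Rik in the annotation) was at 15.5 ± 0.904 CPM in WT and 15.9 ± 1.22 in KO, a log2 fold change of 0.04 (SE 0.13, edgeR adjusted p = 0.884). The marked libraries had 19.3 CPM of it (WT2) and 16.7 CPM (KO4). Rab27a, a vesicle transport GTPase that lies on the far side of Pigbos1, was at 2.53 ± 0.716 CPM in WT and 2.69 ± 0.432 in KO. Of the exon bases of Pigb, 27.1% overlap exons of other genes, all on the opposite strand, mainly Ccpg1 (2170 bases), Gm44503 (1199 bases) and Pigbos1 (661 bases). Whether counting used strand is not given in the sources used here, so reads in those bases cannot be assigned with certainty. Ccpg1 had a mean of 0.100 CPM in WT and 0.132 in KO, and Gm44503 had no count. Gm44503 (chr9:72958852-73016319) and Ccpg1 (chr9:72985429-73016340) overlap each other on the same strand, so these counts need not be the level of either.

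**Figure D3:**
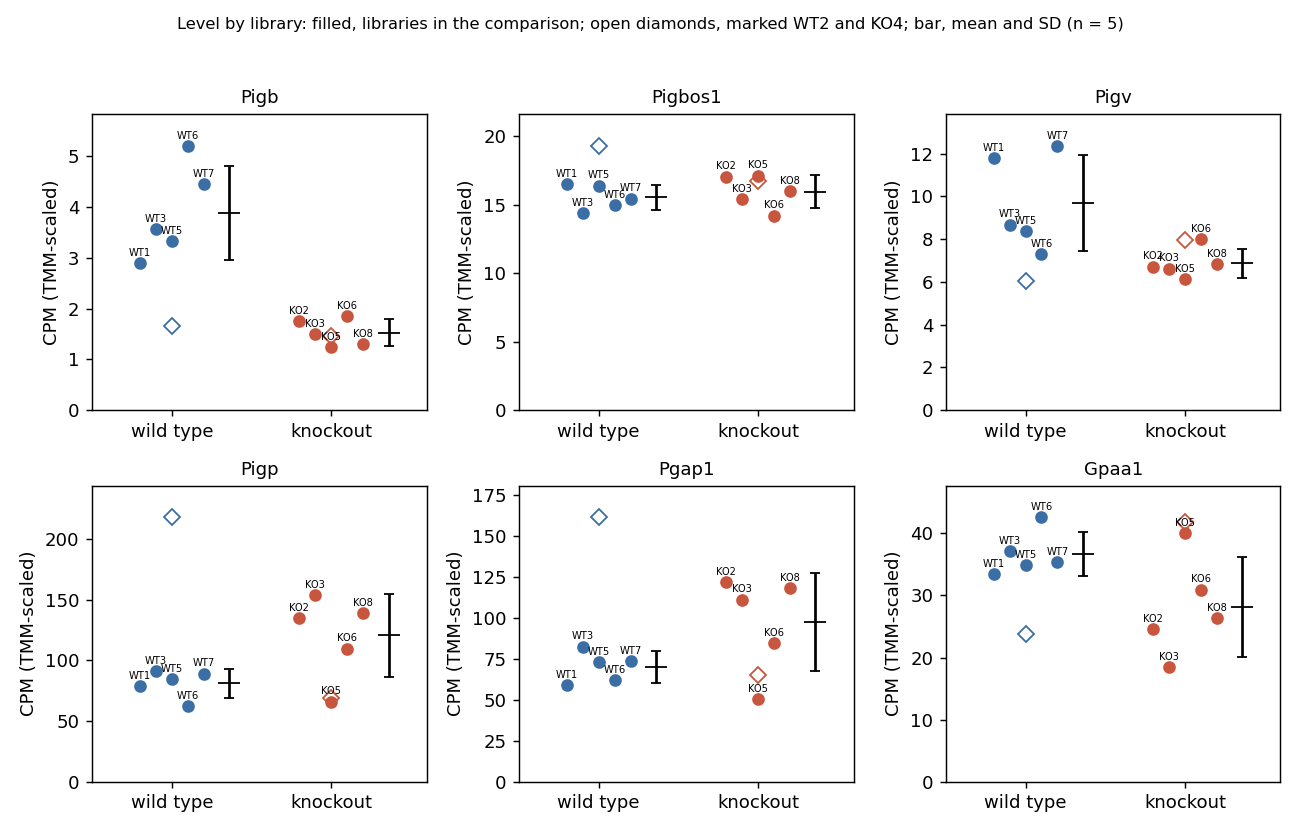
CPM of Pigb, Pigbos1, Pigv, Pigp, Pgap1 and Gpaa1 in each library, with filled points for the 5 WT and 5 KO libraries of the test, open diamonds for the marked WT2 and KO4, and bars for the mean and SD (n = 5). The KO values of Pigb lie between 1.25 and 1.85 and WT2 is among them at 1.65, while for Pigp and Pgap1 WT2 is the highest library of all.

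The first enzyme of the pathway, the N-acetylglucosamine transferase, has 6 members here, with a median log2 fold change of 0.00. Pigp was at 78.5, 90.8, 84.6, 62.0 and 89.1 CPM in WT and at 135, 153, 66.0, 110 and 139 CPM in KO. All KO libraries but KO5 were above every WT library, and KO5 lay near the bottom of the WT range. The log2 fold change was 0.57 (SE 0.18, unadjusted p = 0.00497, edgeR adjusted p = 0.132). The control WT2, at 218 CPM, was above every KO library, and KO4 was at 68.9 CPM, so with all 12 libraries the log2 fold change was 0.11. Pigp shares 28.2% of its exon bases with other genes, of which 326 bases lie in exons of Ttc3 on the opposite strand.

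Pigq, which stabilises the same enzyme, was at 74.1, 58.5, 63.0, 73.8 and 61.4 CPM in WT and 57.4, 43.9, 67.6, 60.3 and 56.9 CPM in KO. The groups overlapped (log2 fold change -0.21, SE 0.12, adjusted p = 0.316 in edgeR). Piga, the catalytic subunit, was at 13.5 ± 2.80 CPM in WT and 14.9 ± 2.19 in KO. Pigc, Pigh and Pigyl had log2 fold changes of -0.16, -0.07 and 0.07.

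Of the next steps, Pigl removes the acetyl group and Pigw adds an acyl chain to the inositol. Pigw was at 6.07, 9.55, 6.12, 4.58 and 6.08 CPM in WT and 7.69, 8.87, 8.74, 8.22 and 9.07 CPM in KO. WT3 was above every KO library and the other WT libraries were below all of them. Pigw had a log2 fold change of 0.39 (SE 0.20, edgeR adjusted p = 0.252). In the marked libraries the order was the opposite, with WT2 at 10.9 CPM and KO4 at 5.35. Pigl was near the limit of detection, with 10 to 34 reads per library, and had a log2 fold change of -0.19 (SE 0.42).

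The mannosyltransferases that were tested besides Pigb are Pigm with its partner Pigx (the first mannose) and Pigv (the second). Pigv was at 11.8, 8.68, 8.37, 7.30 and 12.4 CPM in WT and 6.72, 6.63, 6.15, 8.02 and 6.84 CPM in KO. Only WT6 and KO6 crossed. WT2, at 6.03 CPM, lay below every KO library of the test, and KO4 was at 7.98 CPM. The log2 fold change of Pigv was -0.51 (SE 0.19, unadjusted p = 0.0144, edgeR adjusted p = 0.158). Pigm (45.8 ± 3.62 CPM in WT and 50.6 ± 8.90 in KO) had a log2 fold change of 0.15, and Pigx one of -0.05. Pigz had 4 to 11 reads in each of the 10 libraries and no fold change was fitted.

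Pign, Pigo and Pigg transfer ethanolamine phosphate, and Pigf is the partner of Pigo and Pigg. Pigg had a log2 fold change of -0.40 (SE 0.25), Pigo -0.30 (SE 0.22), Pign 0.08 and Pigf -0.01. None had an unadjusted p under 0.05.

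The transamidase has 5 members and a median log2 fold change of -0.28. Gpaa1 was at 33.4, 37.1, 34.9, 42.6 and 35.4 CPM in WT and 24.6, 18.4, 40.0, 30.9 and 26.4 CPM in KO. KO5 was the exception again, lying inside the WT range while the other KO libraries were below it. The log2 fold change was -0.38 (SE 0.16, unadjusted p = 0.0303, edgeR adjusted p = 0.190).

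Pigt, the subunit that holds the transamidase together, was at 58.9, 57.8, 54.9, 74.2 and 55.6 CPM in WT and 46.0, 42.0, 63.8, 51.4 and 39.1 CPM in KO. It showed the same order, with KO5 above 4 of the WT libraries. Its log2 fold change was -0.31 (SE 0.13, unadjusted p = 0.0314, edgeR adjusted p = 0.192). For both subunits the marked libraries went the other way: Gpaa1 was at 23.8 CPM in WT2 and 41.8 in KO4, and Pigt at 28.8 and 62.1.

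Pigk, the subunit that cuts the protein, was at 25.4, 26.2, 19.7, 20.4 and 19.4 CPM in WT and 20.9, 35.7, 26.7, 22.9 and 28.2 CPM in KO. The groups overlapped (log2 fold change 0.28, SE 0.15, edgeR adjusted p = 0.299). The other subunits, Pigs and Pigu, had log2 fold changes of -0.28 and 0.04.

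Dolichol phosphate mannose is made by Dpm1, Dpm2 and Dpm3 and used with the help of Mpdu1. Dpm3 was at 139, 133, 123, 121 and 127 CPM in WT and 133, 150, 119, 147 and 154 CPM in KO, with overlapping groups. Dpm1 was at 3.76, 4.73, 3.96, 2.47 and 3.66 CPM in WT and 4.67, 6.16, 4.46, 2.78 and 4.75 CPM in KO, and overlapped too. The log2 fold changes were 0.29 (SE 0.25) for Dpm1, -0.06 for Dpm2, 0.13 for Dpm3 and -0.13 for Mpdu1. Pigyl, the other member with a high level per length, was at 66.5, 47.2, 54.6, 49.0 and 49.1 CPM in WT and 46.7, 56.8, 53.4, 64.0 and 59.2 CPM in KO, again overlapping.

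After attachment, Pgap1 removes the acyl chain from the inositol, Mppe1 removes an ethanolamine phosphate, and Pgap3 and Pgap2 exchange a fatty acid. Pgap1 was at 58.8, 82.4, 73.0, 61.7 and 73.6 CPM in WT and 122, 111, 50.5, 84.6 and 118 CPM in KO. All KO libraries but KO5 were above the WT range, and KO5 was below it. Pgap1 came to 0.48 on the log2 scale (SE 0.19, unadjusted p = 0.0211, edgeR adjusted p = 0.171). WT2 had 161 CPM of Pgap1 and KO4 65.2, which is the order seen for Pigp.

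Pgap2 was at 18.0, 23.0, 27.5, 22.4 and 28.8 CPM in WT and 24.2, 28.1, 35.1, 29.8 and 26.2 CPM in KO. The groups overlapped (log2 fold change 0.26, SE 0.15, edgeR adjusted p = 0.299). Pgap3 and Mppe1 had log2 fold changes of -0.21 and -0.27, with SEs of 0.22 and 0.30. Gpld1 had 0 to 5 reads in each of the 10 libraries. The 31 genes summed to 1013 to 1071 CPM in WT and 1018 to 1111 CPM in KO, so their total overlapped between the groups.

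KO5 bore on these counts more than any other library. Pigb, chosen for its difference, is left out of the counts of members in this paragraph. Without KO5, 4 members passed an adjusted p of 0.05 in edgeR. Pigp (9.12e-04) and Pgap1 (0.00116) were higher and Gpaa1 (0.00732) and Pigt (0.0101) lower in KO. In that fit 12.3% of all genes passed as higher and 10.6% as lower, 3102 of 13562 genes in all. Leaving out any other library of the test gave 0 members. With all 12 libraries, 0 members passed the adjusted p, against 0.00751% of genes as higher and 0.00% as lower. At an unadjusted p of 0.05, 0 members were then higher (1.91% of genes) and 0 besides Pigb were lower (1.55%). The log2 fold changes over 12 libraries were 0.11 for Pgap1, 0.15 for Pigw, 0.16 for Pigk, -0.19 for Gpaa1 and -0.12 for Pigt. Besides Pigb, a fit without the filter on low counts called Pigp and Pgap1 as higher, beside 2.29% of its 27688 genes, and 0 members as lower, beside 1.2%.

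The fold changes of the members moved with the GC content of their transcripts. Over the 29 tested members Pearson's r was -0.33 and Spearman's rho -0.52. Over the 28 besides Pigb r was -0.56, and over 13432 genes r was -0.46. These are descriptions across genes that share the same libraries. Of 16 members under 50% GC, 9 had a log2 fold change above 0 (median 0.06). Of 13 members at 50% or more, 3 did (median -0.21).

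The same trend was present within libraries. Relative to the mean of the 10 libraries of the test, levels changed by -0.23 on the log2 scale per 10 points of GC in KO3, by -0.21 in KO2 and by -0.19 in KO8, but by 0.15 in KO5. WT2 had the steepest slope, at -0.45, and WT6 was at 0.22. After a GC trend was removed from each library, Pigb had a log2 fold change of -1.42 and Pigp one of 0.53 (unadjusted p = 0.00857 in edgeR). Pgap1 came to 0.18, Pigv to -0.37, Gpaa1 to -0.21 and Pigt to -0.14. In that fit 0 members passed the adjusted p (0.0223% of all genes as higher, 0.0149% as lower). At an unadjusted p of 0.05, 4 members were higher (Pigp, Dpm3, Pgap2 and Pigyl) against 7.98% of genes, and 0 besides Pigb were lower, against 7.66%.

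**Figure D4:**
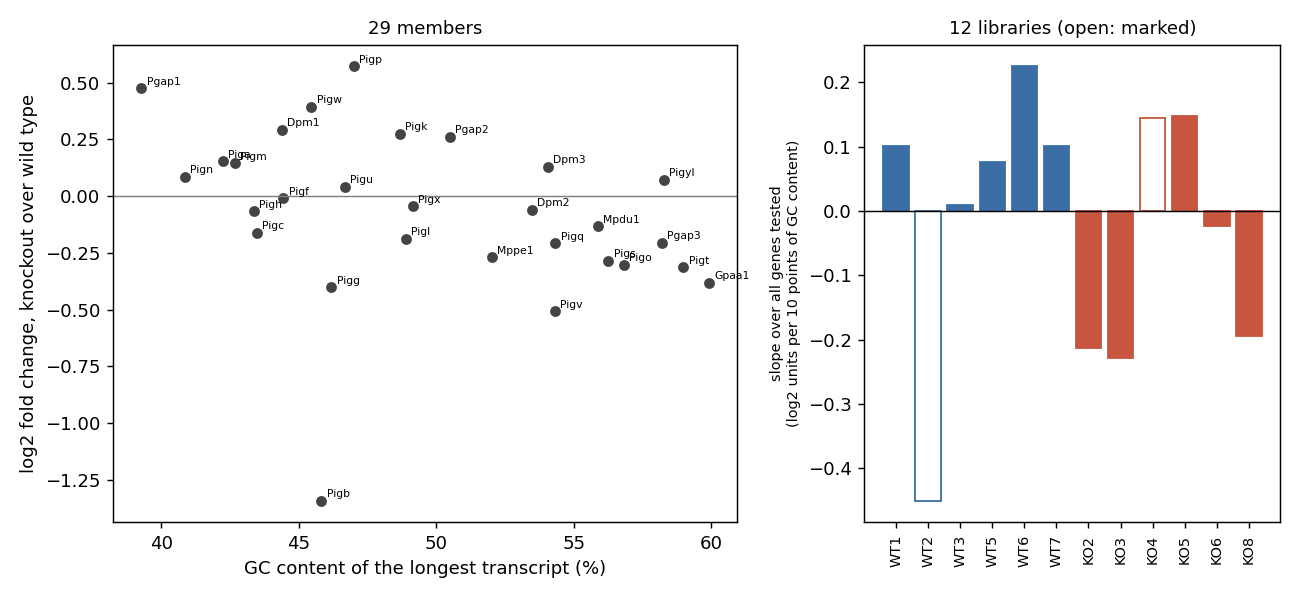
The left panel plots the log2 fold change (KO over WT) of the 29 tested anchor genes against the GC content of their longest transcript (percent), where the 13 members at 50% or more have a median of -0.21 and Pigb lies apart at -1.34. The right panel shows as bars each library's slope over all tested genes (log2 units per 10 points of GC content, open bars for the marked libraries), negative in WT2, KO2, KO3, KO6 and KO8 and above 0 in the others.

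Markers of other cell types differed between the same libraries. The 9 Purkinje cell markers summed to 259 to 389 CPM in WT and 336 to 582 in KO, with 484 in KO2, 582 in KO3 and 719 in WT2, which are also high in Pigp and Pgap1. KO8, which is high in both genes too, had a sum of 391, beside 389 in KO5, the lowest KO library of the test for both. Of the 8 that were tested, 5 were higher in KO at an unadjusted p of 0.05 (11.8% of all genes), and Shh had a mean of 0.293 CPM in WT. The median log2 fold change of the tested Purkinje cell markers was 0.42, and 0.16 over 12 libraries. The 8 Bergmann glia and astrocyte markers summed to 576 to 977 CPM in WT, 796 to 1229 in KO and 1986 in WT2. No marker of either list had a WT mean of 0. All 7 meninges markers had a log2 fold change above 0, 2 of them at an unadjusted p of 0.05 (11.8% of all genes), with sums of 453 to 800 CPM in WT and 447 to 831 in KO. Over 12 libraries the median of the meninges list was 0.00, and Dcn, Lum and Col1a2 were below 0 (-0.04, -0.01 and -0.01). Of 7 oligodendrocyte markers, 5 were tested, 2 with a log2 fold change above 0 and 3 below. At an unadjusted p of 0.05, 2 were lower in KO (9.97% of all genes). Mbp was lower without overlap between the groups, as were 1.31% of all genes. Its log2 fold change was -0.38 (edgeR adjusted p = 0.131), and -0.21 over 12 libraries. Pdgfra was at 248 ± 14.7 CPM in WT and 250 ± 9.93 in KO. The part of these cells in the values of Pigp and Pgap1 was not tested.

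Some anchor genes share a start region with a neighbour. Of the 31 members, 7 (22.6%) had a protein-coding gene, by the GENCODE annotation, on the opposite strand that starts within 1000 bases. Of the 29 tested, 7 did (24.1%), beside 1920 of 12418 tested protein-coding genes (15.5%). Pigb is not among the 7, because Pigbos1 (19 bases between start positions) is a processed transcript in GENCODE and protein coding in RefSeq. The 7 pairs are Dpm1 with Mocs3 (31), Pigw with Myo19 (47), Pigx with Cep19 (60), Pigp with Ttc3 (76), Pigf with Cript (144), Pgap2 with Nup98 (186) and Pign with Relch (221). Among the members of the 7 pairs, only Pigp had an unadjusted p under 0.05 in edgeR. In the other pairs both partners could therefore not pass it, and whether partners change together was not tested. Ttc3, the partner of Pigp, was at 228 ± 25.9 CPM in WT and 193 ± 23.6 in KO (log2 fold change -0.24, edgeR adjusted p = 0.218), the opposite sign to Pigp. RefSeq gives a start window of 300 bases for 25 members, with a median GC content of 59.7%, beside 61.3% over 9800 tested protein-coding genes.

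Of 68 listed proteins that carry the anchor, 50 were tested and 0 passed the adjusted p in edgeR. At an unadjusted p of 0.05, 4 were higher (11.8% of all genes) and 8 lower in KO (9.97%), and the median log2 fold change was -0.03. DESeq2 called 2 as higher (1.76% of all genes) and 1 as lower (1.67%). The highest per length in WT were the surface sialoglycoprotein Cd24a at 265 CPM per kb, the neurite growth factor Nrn1 at 74.0 and the semaphorin Sema7a at 54.1. Neurotrimin (Ntm), an IgLON adhesion protein, was at 46.7 ± 4.33 CPM in WT and 63.8 ± 7.84 in KO without overlap (log2 fold change 0.45, edgeR adjusted p = 0.124). WT2 (67.4 CPM) lay inside the KO range of Ntm and KO4 was at 77.2. The adhesion proteins Cntn1 and Mdga2 and the nucleotidase Nt5e had log2 fold changes of 0.64, 0.65 and 1.15. The groups of each overlapped (edgeR adjusted p = 0.133, 0.171 and 0.146). Nt5e was low, at 1.86 ± 1.02 CPM in WT, with 8 to 71 reads per library of the test. Over 12 libraries the log2 fold changes were 0.30, 0.11 and 0.89, and WT2 was above every KO library for Cntn1 (140 CPM) and Mdga2 (27.9 CPM).

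Among the lower ones, glypican 2 (Gpc2), a heparan sulphate proteoglycan, was at 3.05 ± 0.871 CPM in WT and 1.69 ± 0.373 in KO without overlap. Its log2 fold change was -0.85 (edgeR adjusted p = 0.155), and WT2, at 1.77 CPM, lay inside the KO range, as for Pigb. Ly6e, a surface protein of the Ly6 family, had a log2 fold change of -0.54, the Nogo receptor Rtn4r one of -0.56 and Mdga1, which binds neuroligins, one of -0.40. Over 12 libraries these came to -0.26, -0.32 and -0.23, and Gpc2 to -0.83.

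Of 42 other genes around the pathway, 41 were tested and 0 passed the adjusted p in edgeR, while DESeq2 called 2 as higher (1.76% of all genes) and 2 as lower (1.67%). At an unadjusted p of 0.05, 4 were higher (11.8% of all genes) and 10 lower (9.97%), with a median log2 fold change of -0.10. The highest per length in WT were the phosphodiesterase Gde1 at 74.1 CPM per kb, the cargo receptor Tmed9 at 48.4 and the phosphomannomutase Pmm1 at 26.0. Nus1 and Dhdds encode both subunits of the enzyme that makes dolichol, and they differed in sign. Nus1 was at 89.7 ± 5.57 CPM in WT and 125 ± 18.0 in KO without overlap (log2 fold change 0.48, edgeR adjusted p = 0.124), and at 172 CPM in WT2, so that over 12 libraries the log2 fold change was 0.18. Dhdds was at 54.1 ± 5.25 CPM in WT and 42.9 ± 5.62 in KO (log2 fold change -0.34, edgeR adjusted p = 0.145), and at 30.6 CPM in WT2, with -0.17 over 12 libraries.

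The mannosyltransferases of N-glycan synthesis draw in part on the same dolichol phosphate mannose. Of 6 tested, 5 had a log2 fold change below 0, with a median of -0.48 (-0.40 with the GC trend removed and -0.28 over 12 libraries). Alg3, Alg12, Alg1 and Alg2 were lower at an unadjusted p of 0.05 (9.97% of all genes; over 12 libraries 1 of the 6 was), with log2 fold changes of -0.68, -0.81, -0.57 and -0.39. Gdpd5, a phosphodiesterase that cleaves some GPI-anchored proteins, was at 27.9 ± 3.23 CPM in WT and 19.6 ± 2.59 in KO without overlap (log2 fold change -0.52, edgeR adjusted p = 0.126). It was at 10.8 CPM in WT2, below every KO library, and its log2 fold change over 12 libraries was -0.27. Of the genes higher in KO, the cargo receptor Tmed5, the ethanolamine kinase Etnk1 and the fatty acyl reductase Far1 had log2 fold changes of 0.48, 0.38 and 0.57, which over 12 libraries were 0.26, 0.12 and 0.11.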

How the data were processed

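Reads per gene were deposited as raw HTSeq counts, 1 file per library. Per the submitters' processing notes, cutadapt 1.16, STAR 2.5.3a, HTSeq 0.6.1 and DESeq2 were used with the mouse build mm10. The sources used here do not give their settings, the annotation or the use of strand. The files also count reads outside genes. Ambiguous reads came to 6.81 to 8.13% of uniquely aligned reads. The count of alignments that were not unique came to 64.4 to 67.6% of that count and the unique reads together. Whether a read with several alignments enters that count once is not given, so it may not be a share of reads. These rows were left out of totals and tests.

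The members and gene lists were chosen with earlier results of these data known. Gene IDs were matched to GENCODE M21 (53274 of 53379) for symbols, exon lengths and GC content. Counts were scaled by TMM to counts per 1000000 (CPM) over all 12 libraries. Genes passing filterByExpr (minimum count 10) were tested with edgeR 4.0.16 (glmQLFit, robust, glmQLFTest) in R 4.3.3, KO over WT, with Benjamini-Hochberg adjustment over all genes tested. The SE is the log2 fold change over the root of the test's F value. Ratios divide mean CPM. Removing the GC trend meant fitting a spline of 5 degrees of freedom to each library's log2 CPM (prior count 2) and entering it as an offset. Alternatives were DESeq2 1.42.0, RLE factors, no filter, all 12 libraries, KO2 counted as WT, each library left out, a replicate block and, chosen after seeing the data, adding WT2 or KO4 alone and the GC offset with the block.

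All members are accounted for. Values per library are given for Pigb, the 5 members with the smallest p in each direction and the 2 highest and 2 lowest per length. Of the other lists, 4 genes per direction (smallest p) and the 3 highest per length are named, and Dhdds and Alg12 were named after their values were seen. On simulated counts for 5 against 5 libraries (13224 genes), the test recovered 40.3% of 67 genes given a 1.5-fold change, 69.7% of the 66 given 2-fold and 95.2% of the 62 given 4-fold, with 7.69% of calls false. The counts were drawn for each gene on its own, without a trend shared between genes such as that with GC content. These shares therefore check the code and need not hold for the real libraries. One result that needs a withheld item is not reported here.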

Additional observations from a re-analysis of the deposited data

Results flagged for a closer look

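Over 58 groups of 5 libraries (29 members in WT and in KO), 3 had a highest library far from the rest, where chance flags about 1 group in 20. Pigc was at 25.0 CPM in KO5, with the next KO library at 17.0. Pigt was at 74.2 CPM in WT6, with the next WT library at 58.9. Mppe1 was at 5.10 CPM in WT7, with the next at 2.96.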

How the results depend on the processing

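The counts of members at an unadjusted p under 0.05 depended on the libraries; all counts here include Pigb, which was chosen for its difference. They were 0 higher (1.91% of all genes) and 1 lower (1.55%), with 0 not overlapping, over all 12 libraries. The member counts were the same with WT2 added alone. With KO4 added alone, 2 were lower. With KO2 counted as WT, 1 was lower and 0 did not overlap. Shares over all genes are not given here for the fits with WT2, KO4 or KO2 changed. With the GC trend removed, 4 were higher (7.98% of all genes) and 1 lower (7.66%), and the log2 fold change of Skil was -0.93. Without the filter on low counts, 3 members, 6 GPI-anchored proteins and 7 other pathway genes were called. In that fit 2.29% of all genes passed as higher and 1.2% as lower. DESeq2 called 3 and 4 of the latter lists, beside 1.76% of all genes as higher and 1.67% as lower. Skil stayed at -0.70 both without the filter and in DESeq2 and passed the adjusted p. Leaving out each library in turn gave 0 to 5 members called, 1 to 3 higher and 2 to 7 lower at an unadjusted p, and 1 to 5 not overlapping. The median member log2 fold change ran from -0.12 to 0.01, that of Pigb from -1.43 to -1.22 and that of Skil from -0.78 to -0.59. Called GPI-anchored proteins ran from 0 to 10 and other pathway genes from 0 to 17. Without KO5 the counts of calls were at the upper ends, and 12.3% of all genes then passed as higher and 10.6% as lower. Shares over all genes for the unadjusted and overlap counts of the fits with a library left out are not given here. The causes were not tested. The log2 fold change of Pigb lay between -1.43 and -1.05 under every alternative. These fits reuse the libraries in which Pigb was chosen, so they are no independent support for its difference. Low counts limit Pigb, Pigl, Pigz and Gpld1 most.

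Whether equal library numbers pair the samples cannot be decided from so few pairs. Over the 10 libraries, residuals of same-numbered libraries (3 pairs) correlated from -0.07 to 0.14, and 0 of 6 libraries correlated best with its own number. Over the 12 libraries (4 pairs) the correlations ran from -0.06 to 0.40, and 1 of 8 libraries correlated best with its own number. The fits with a replicate block kept only the same-numbered pairs. Over the 3 pairs of the 10 libraries, 0 members passed the unadjusted p as higher and 2 as lower, and 3 did not overlap. Over the 4 pairs of the 12 libraries these counts were 0, 1 and 0. With the GC trend removed as well, over the 3 pairs, the counts were 1, 2 and 3. Groups of 3 libraries separate fully by chance more often than the larger groups of the main test. The counts without overlap therefore cannot be compared with the count of the main test. Shares over all genes are not given here for the fits with the block. Pgap1 turned to -0.017 under the block over 12 libraries and to -0.047 with the GC trend removed and the block.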
